A study of Mus musculus with 12 samples.

Results

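The promoter elements described here kept a call of transcription initiation through all 3 substages of prophase I that were profiled in mouse spermatocytes. They were chosen by measured values: the dREG peaks of leptonema/zygonema, pachynema and diplonema were merged where they overlapped or touched, and a merged element on chromosomes 1 to 19 was kept when it held a peak of each list and its edge lay under 1000 bp from an annotated transcription start site (TSS). Of 65172 merged elements, 63116 were autosomal and 25410 of these were proximal to a TSS, and 12542 of the proximal elements held peaks of all 3 lists and are called constant below. Peaks of all 3 lists were present in 31.4% of the autosomal elements and in 49.4% of the autosomal proximal elements. Because presence in each list defined the members, that presence is not a finding, and "constant" refers to the calls and not to an amount of transcription.

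The lists come from leChRO-seq, a run-on assay that lets polymerases already bound to the template add biotin nucleotides to their nascent RNA, on cells of wild-type (WT) adult mice that STAPUT sedimentation had enriched for each substage. There were 12 libraries, 4 for each substage, and the authors merged the 4 libraries of a substage before calling peaks, so each substage has 1 list without replicate spread and no test between substages was possible. The fractions were enriched and not pure, with elongated spermatids given by the study as most of the other cells, and testes of many animals were combined. Read counts are not part of the lists, and the library sizes given by the study were not used here, so no call has its depth beside it, and depth, purity and substage cannot be told apart. The leptonema/zygonema list held 71107 peaks, that of pachynema 68352 and that of diplonema 38603, and the shorter diplonema list bears on each comparison with that substage.

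A promoter is the stretch of DNA around a TSS on which RNA polymerase II is assembled, and in mammals many promoters, above all those of genes that every cell uses, lie in CpG islands, where the CpG dinucleotide has not been depleted by methylation and mutation. At such promoters polymerase commonly starts in both directions from neighbouring sites and pauses shortly after starting. dREG is a machine-learning tool that recognises the resulting pattern of run-on reads and gives every peak a score, which grows with the strength of the pattern. In male prophase I the chromosomes pair, form the synaptonemal complex and recombine, while genes for later sperm development are already being transcribed.

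The labels of the cells were compared with marker genes. All 8 spermatocyte markers (Sycp1, Sycp3, Dmc1, Prdm9, Hormad1, Spo11, Piwil1 and Ccna1) had a constant promoter element, against 49.8% of all autosomal protein-coding genes. Of 14 spermatogonial genes 6 had one, of 7 Sertoli cell markers 2 had one (Sox9 and Gata4), and none of 6 Leydig cell markers and none of 10 markers of peritubular, endothelial and blood cells had one. Of the spermatid markers Prm1, Prm2 and Tnp1 had one, and Prm3 and Tnp2 had no peak. The Wilson 95% intervals of the spermatogonial (21.4 to 67.4%) and Sertoli cell shares (8.22 to 64.1%) include the share of all genes, so these counts do not set either list apart from it. No peak of any list lay under 1000 bp from a TSS of 4 Leydig cell markers, 9 of the 10 peritubular, endothelial and blood cell markers, 2 of the Sertoli cell markers and 3 of the spermatogonial genes, and the same held for 7332 of 20807 autosomal protein-coding genes. Pachynema peaks were near 5 Sertoli cell markers and 11 spermatogonial genes, so the lists do not show these cell types to be absent. The element of Sox9, which encodes a transcription factor of Sertoli cells, lay at score percentiles of 21.2, 58.4 and 50.3 in leptonema/zygonema, pachynema and diplonema, where a percentile is the share of a list's autosomal peaks that do not score above the element's highest-scoring peak. The element of Gata4, a transcription factor of gonadal somatic cells, lay at 76.2, 79.99 and 43.3. The part of other cells in these 2 calls was not tested.

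The sequence around the TSS is shown for 8 elements, since the members share no single sequence and these span the range from a promoter without any CpG to CpG-dense ones. The first 3 are among the elements whose lowest percentile over the 3 lists was highest, and the other 5 are the highest-ranked elements of the synaptonemal complex, strand break, recombination, piRNA and spermatid gene lists described further on. Each run holds 130 bases before and 20 bases from the TSS onwards, 5′ to 3′ on the strand of the gene, from the mm10 (GRCm38) assembly, the run of 4930447C04Rik is at an internal TSS and not at the first annotated start of the gene, and capitals mark every match to 1 of 11 short motifs that were searched on both strands.
4921513I08Rik (chr7:78254166-78254315, plus strand): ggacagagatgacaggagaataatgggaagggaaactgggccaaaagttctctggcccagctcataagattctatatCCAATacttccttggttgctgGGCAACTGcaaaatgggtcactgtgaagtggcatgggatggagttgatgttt
Bcl7b (chr5:135168315-135168464, plus strand): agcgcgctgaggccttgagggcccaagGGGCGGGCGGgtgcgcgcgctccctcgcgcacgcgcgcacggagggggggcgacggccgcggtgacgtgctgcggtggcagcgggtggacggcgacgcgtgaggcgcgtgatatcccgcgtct
1700024P04Rik (chr13:98984546-98984695, minus strand): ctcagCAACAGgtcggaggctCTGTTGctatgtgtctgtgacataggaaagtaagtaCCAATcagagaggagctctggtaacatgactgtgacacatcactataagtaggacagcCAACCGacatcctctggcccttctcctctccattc
4930447C04Rik (chr12:72917741-72917890, minus strand): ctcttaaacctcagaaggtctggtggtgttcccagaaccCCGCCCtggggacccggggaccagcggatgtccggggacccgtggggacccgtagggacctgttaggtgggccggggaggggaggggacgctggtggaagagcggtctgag
Hormad1 (chr3:95559548-95559697, plus strand): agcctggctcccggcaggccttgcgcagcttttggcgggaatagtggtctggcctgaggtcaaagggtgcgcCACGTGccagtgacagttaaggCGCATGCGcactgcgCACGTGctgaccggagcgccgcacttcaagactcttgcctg
Meiob (chr17:24804229-24804378, plus strand): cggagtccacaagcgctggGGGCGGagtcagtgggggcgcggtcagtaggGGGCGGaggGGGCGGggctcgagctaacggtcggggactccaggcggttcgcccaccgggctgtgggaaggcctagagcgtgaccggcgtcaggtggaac
Asz1 (chr6:18109025-18109174, minus strand): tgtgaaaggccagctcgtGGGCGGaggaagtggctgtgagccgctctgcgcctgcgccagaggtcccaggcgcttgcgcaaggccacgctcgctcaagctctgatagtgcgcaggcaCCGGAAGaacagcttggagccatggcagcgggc
Ldhc (chr7:46861073-46861222, plus strand): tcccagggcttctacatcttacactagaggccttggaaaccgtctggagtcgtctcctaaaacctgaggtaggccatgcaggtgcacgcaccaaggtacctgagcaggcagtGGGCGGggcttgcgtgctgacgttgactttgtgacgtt

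The GC box bound by Sp and KLF factors was searched as GGGCGG, the box of NF-Y as CCAAT, the ETS factor motif as CCGGAAG, the NRF1 motif as CGCATGCG, the YY1 motif as AAGATGGC, and the CRE of CREB and CREM as TGACGTCA. The half-site of RFX factors was searched as GTTGCC, the MYB motif as CNGTTG, which can overlap it, the ZNF143 motif as ACTACAA, the E-box as CACGTG and the TATA box as TATAAA. A match says that the letters are present and is not evidence of binding. Among the 8 runs GGGCGG was found in those of Bcl7b, 4930447C04Rik, Meiob, Asz1 and Ldhc, on the other strand as CCGCCC in 4930447C04Rik, and in Bcl7b 2 copies overlap. The run of 4921513I08Rik held CCAAT 53 bases before the TSS and overlapping RFX and MYB matches 32 and 30 bases before it, and no CpG. The run of 1700024P04Rik held 3 MYB matches and a CCAAT box. The run of Hormad1 was the only 1 of the 8 with an NRF1 match, 36 bases before the TSS and between 2 E-boxes. For scale, the central 200 bp of all autosomal proximal elements held the GC box in 30.5%, the MYB motif in 25.4%, CCAAT in 21.3%, the RFX half-site in 9.05%, the ETS motif in 5.38%, the E-box in 4.57% and the NRF1 motif in 0.760% of cases.

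The constant promoter elements were wide. Their median width was 1230 bp (quartiles 860 and 1590 bp, range 130 to 4060 bp), against 450 bp for the 12868 other autosomal proximal elements and 870 bp for the 7305 autosomal distal elements with peaks of all 3 lists. Merging over 3 lists makes elements wider, so the bases under the peaks of each list were counted as well. The median per element was 1000 bp of leptonema/zygonema peaks, 1070 bp of pachynema peaks and 850 bp of diplonema peaks. A median of 670 bp, or 61.2% of an element, lay under peaks of all 3 lists at once, and in 69 elements (0.55%) no base did.

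**Figure D1:**
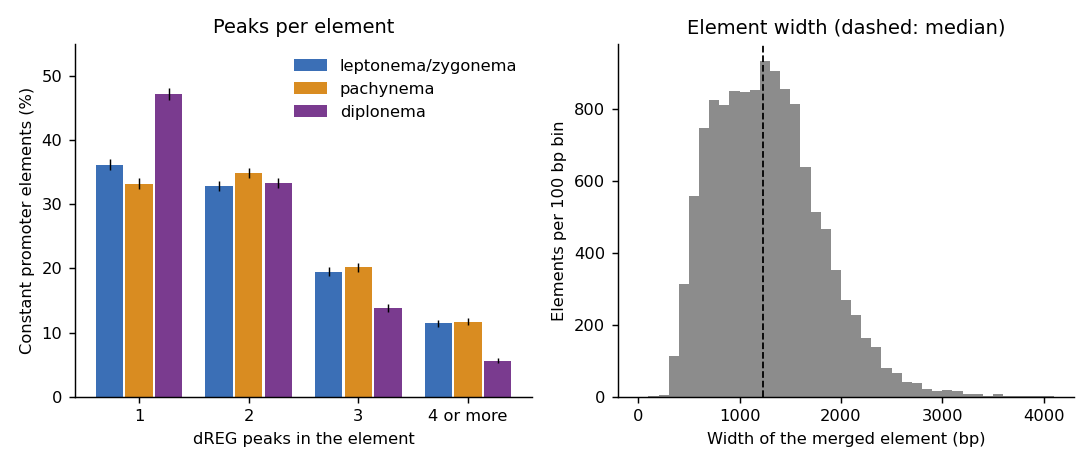
Left, percent of the 12542 constant promoter elements (y axis) with 1, 2, 3 or at least 4 dREG peaks (x axis) in each list, with Wilson 95% intervals that cover the counting of elements only. Right, number of elements per 100 bp of width (y axis) against the width in bp (x axis), with the median of 1230 bp dashed. Elements with 1 peak made up 47.2% in diplonema, against 36.2% in leptonema/zygonema and 33.2% in pachynema.

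Most of the elements were made of several adjoining peaks. In leptonema/zygonema 36.2% of them held 1 peak, in pachynema 33.2% and in diplonema 47.2%, while 4 or more peaks were held by 11.4%, 11.7% and 5.65%, as the plot of peaks per element shows. Neighbouring peaks of an element were separated by exactly 20 bp in 86.8%, 91.2% and 85.1% of cases, so a broad region can count as several peaks. The 3 lists gave an element the same number of peaks in 4477 cases (35.7%), and 2893 elements (23.1%) had 1 peak in each list. Diplonema had fewer peaks than pachynema in 37.2% of the elements and more in 11.3%. The members held 38.4% of the autosomal leptonema/zygonema peaks, 40.8% of those of pachynema and 60.3% of those of diplonema, shares that the requirement of a peak in each list partly fixes.

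The 5 widest elements show how such broad regions look. The widest, 4060 bp at Utp18, which encodes a factor of small ribosomal subunit processing, also covered the start of Mbtd1 and held 9, 9 and 8 peaks in leptonema/zygonema, pachynema and diplonema. The element at Sgms1 (sphingomyelin synthase) was 3980 bp wide with 8, 9 and 8 peaks, and that at Hnrnpll (an RNA-binding splicing regulator) 3870 bp with 5, 7 and 6. At Zswim6 an element of 3860 bp held 6, 10 and 6 peaks, of which the 10 in pachynema were the most in any constant element. The element of Ankrd13a was 3800 bp wide, reached the starts of Git2 and 4930515G01Rik and held 8, 6 and 5 peaks. In none of the 5 did the highest-scoring peaks of the 3 lists all overlap. None of these 5 was among the top scores: their percentiles lay between 58.7 (Sgms1 in leptonema/zygonema) and 89.98 (Zswim6 in pachynema).

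The positions of the highest-scoring peaks within an element were compared between the lists. Merging touching or overlapping peaks makes such overlap likely, and in elements with 1 peak in each list the rule nearly fixes it, so the overlap is a description. The highest-scoring peaks of the 3 lists overlapped each other in 88.8% of the elements, and in 85.7% of the 9649 elements where some list held more than 1 peak. The centres of the highest-scoring peaks lay a median of 40 bp apart between leptonema/zygonema and pachynema, 50 bp between pachynema and diplonema, and 60 bp between leptonema/zygonema and diplonema. Centres more than 500 bp apart were seen in 5.25%, 5.72% and 7.30% of the elements for the same pairs of lists.

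A TSS lay inside 11253 constant elements (89.7%) and 41.8% of the other proximal elements. Distance to a TSS was part of the rule and the members are wider, so these shares are a description. Intervals here and below cover the counting of elements only, and neighbouring elements are not independent. In the 9642 elements whose nearby TSSs were all on the same strand, the centre of the highest-scoring peak lay a median of 60 bp upstream of the TSS in leptonema/zygonema, against 53 bp for pachynema and 48 bp for diplonema. It was upstream of the TSS in 69.2%, 67.5% and 66.9% of these elements.

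**Figure D2:**
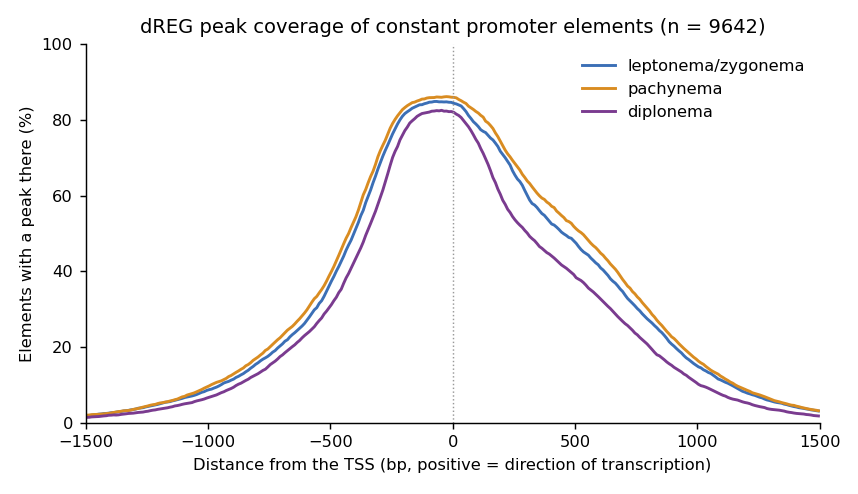
Percent of the 9642 constant promoter elements with TSSs on 1 strand that had a dREG peak at each position (y axis), against the distance from the TSS in bp, positive in the direction of transcription (x axis), for the 3 lists. All 3 curves are highest just before the TSS, at 84.8% (leptonema/zygonema), 86.1% (pachynema) and 82.5% (diplonema) of elements, and reach further downstream than upstream in leptonema/zygonema and pachynema.

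The coverage curves around the TSS peaked 65 bp before it in leptonema/zygonema (84.8% of elements), 25 bp before it in pachynema (86.1%) and 45 bp before it in diplonema (82.5%). At least 50% of the elements were covered from 395 bp upstream to 445 bp downstream by leptonema/zygonema peaks, from 415 to 525 bp by pachynema peaks and from 345 to 305 bp by diplonema peaks. The curves differed mainly in extent, and more so downstream of the TSS. In 2428 elements with exactly 1 peak in each list and TSSs on 1 strand, the median width of the leptonema/zygonema peak was 560 bp, that of the pachynema peak 570 bp and that of the diplonema peak 470 bp. From leptonema/zygonema to diplonema its upstream edge moved by a median of 30 bp towards the TSS (quartiles -30 and 100 bp), its downstream edge moved by -40 bp (quartiles -110 and 20 bp), and the median shift of its centre was 0 bp (quartiles -40 and 50 bp), with 47.3% of centres moving downstream and 45.5% upstream. The diplonema peak was narrower than the pachynema peak in 75.7% of these elements, and both edges had a median shift of 0 bp between leptonema/zygonema and pachynema. Depth is not in the lists, and a lower depth in diplonema, if present, cannot be told apart from a narrower region of initiation.

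The members were near 14218 annotated genes, of which 10366 were protein-coding. These are 49.8% of the 20807 autosomal protein-coding genes (Wilson 95% interval 49.1 to 50.5%). A TSS under 1000 bp from a leptonema/zygonema peak was found at 60.9% of these genes, from a pachynema peak at 61.3% and from a diplonema peak at 52.5%, which are the backgrounds for counts in single lists. Most of the 10366 genes (8928) had 1 constant element, 1272 had 2 and 166 had 3 or more, with at most 6. By chromosome, the constant share of proximal elements ran from 46.6% on chromosome 14 to 53.2% on chromosome 1.

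The remaining genes were mostly long noncoding RNAs. Constant elements lay at 1269 of 5209 lincRNA genes (24.4%), at 870 of 2913 antisense genes (29.9%) and at 156 of 190 genes annotated as bidirectional promoter lncRNAs (82.1%), a class that is by definition transcribed away from the start of a protein-coding gene. Processed pseudogenes, which are reverse-transcribed copies that usually lack a promoter, had one in 276 of 8924 cases (3.09%). At least 1 protein-coding gene was near 84.3% of the elements, which are named here after the protein-coding gene with the nearest TSS, and the other 1964 (15.7%) are named after another gene. Of all elements 26.1% were near more than 1 gene and 9.70% were near protein-coding genes of both strands. Peaks carry no strand, so at shared elements the call cannot be assigned to a gene.

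**Figure D3:**
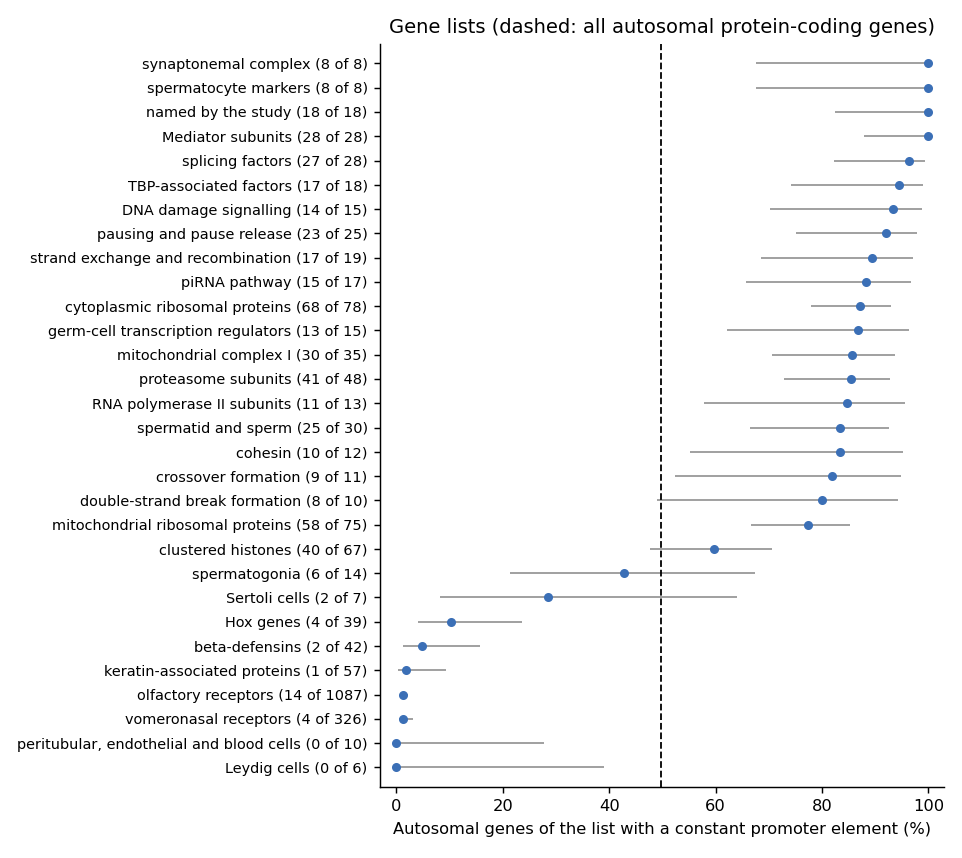
Percent of the autosomal genes of each list with a constant promoter element (x axis, points, with Wilson 95% intervals as bars) for 30 gene lists (y axis, counts in brackets). The dashed line is the 49.8% of all autosomal protein-coding genes, and lists run from 8 of 8 synaptonemal complex genes to 0 of 6 Leydig cell markers.

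Genes of the meiotic programme were next counted by their roles, as the plot of gene lists shows. The highest-scoring peaks of the 3 lists did not all overlap in every element of the gene lists. Among list members named in the text the exceptions were Syce2, Rec114, Dmc1, Hus1, Pld6, Mybl1, Spata1, Psme2, Hoxd8 and Olfr279. The elements of Spo11, Rec114, Piwil1, Tdrd1, Prm1, Gata4 and Med1 lay at TSSs more than 1000 bp after the first annotated start of the gene. Other internal TSSs of named members are given below, and list members that are not named also had such peaks or TSSs. Counts are set against the 49.8% of all autosomal protein-coding genes, and since the lists were assembled with earlier results of these data known, they describe the lists and test nothing. The synaptonemal complex, the protein zipper between paired chromosomes, was covered completely, with 8 of 8 genes. Its highest-ranked element was at an internal TSS of 4930447C04Rik, which is also known as Six6os1 and encodes a central element protein, at percentiles of 94.7, 96.3 and 98.4 in leptonema/zygonema, pachynema and diplonema. Its lowest was that of Syce2, another central element gene, at 90.6, 69.9 and 61.3.

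Of 10 genes for the formation of meiotic DNA breaks, 8 had a constant element, and Ccdc36 and Mei1 had no peak in any list. Hormad1, which encodes a protein of the unsynapsed chromosome axis, stood highest with 96.6, 98.9 and 99.8. Rec114, a partner of the break machinery, stood at 54.3, 80.7 and 3.51, but its diplonema peak overlapped neither the leptonema/zygonema peak nor the highest-scoring pachynema peak, so the values come from different sites within the element. The median percentiles of the 8 elements were 92.5, 89.8 and 71.5. Strand exchange and recombination genes had a constant element in 17 of 19 cases, and Psmc3ip and Xrcc3 had peaks in leptonema/zygonema and pachynema but not in diplonema. Meiob, which encodes a single-stranded DNA-binding protein of meiotic recombination, stood at 97.6, 97.5 and 99.97, and Mnd1, a cofactor of strand exchange, at 83.5, 94.6 and 43.9. Crossover genes had one in 9 of 11 cases, and the lowest-ranked was that of Mlh3 (68.5, 88.5 and 41.3), whose product acts at crossovers. Tex15 lacked a diplonema peak, and Prr19 had peaks of leptonema/zygonema only.

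Cohesin, the ring that holds sister chromatids together, had constant elements at 10 of 12 genes, with no peak at Rad21l and none in diplonema at Nipbl, the cohesin loader. Smc1b, the meiosis-specific core subunit, stood at 92.8, 98.6 and 99.1, whereas Rec8, the meiotic kleisin, stood at 99.0, 87.1 and 4.90. Rec8 is thereby both the lowest of its list and among the 5 members with the largest loss of percentile. DNA damage signalling genes had one in 14 of 15 cases, with no peak at Rad9a, and ran from Topbp1 (99.8, 95.4 and 99.1), an activator of the ATR kinase, to Hus1 (68.3, 69.2 and 57.4), a subunit of the 9-1-1 clamp. All 14 of their elements were CpG-rich by the definition given below, as were 57.6% of all constant elements.

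The piRNA pathway, which silences transposons in the germ line, had constant elements at 15 of 17 genes. Asz1, a protein of piRNA processing at mitochondria, stood at 99.3, 99.4 and 99.0, and Pld6, a mitochondrial nuclease of the same pathway, at 76.0, 50.2 and 48.4. Piwil4 had no peak, and Tdrd6 had peaks in pachynema and diplonema only. The median percentiles of this list were 92.8, 92.1 and 95.4. Germ-cell transcription regulators had one in 13 of 15 cases, from Crem (97.3, 99.0 and 98.8), an activator of haploid genes, to Dmrt1 (84.3, 86.5 and 14.3), a regulator of the entry into meiosis. The absent members were Stra8, the gene that licenses meiotic entry, and Ctcfl, both with peaks in leptonema/zygonema and pachynema only. Of 25 genes of polymerase pausing and pause release 23 had a constant element, from Hexim2 (96.2, 98.4 and 98.04), an inhibitor of the pause-release kinase P-TEFb, to Nelfb (64.4, 68.3 and 15.9), a subunit of the pausing factor NELF. Ell3 had no peak, and Brd3 had peaks of all 3 lists that did not join in 1 constant element.

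Promoters of genes whose products serve in spermatids and sperm were also called from leptonema/zygonema on. A constant element lay at 25 of 30 such genes, on 24 elements because the protamine genes Prm1 and Prm2 shared theirs. Ldhc, the lactate dehydrogenase of germ cells, stood at 99.6, 98.8 and 98.4, and Tssk6, a kinase of spermatids, at 69.0, 76.7 and 24.0. The Tssk6 element was also near Ndufa13, a complex I gene, and Yjefn3, and its highest-scoring peaks ended upstream of the Tssk6 TSS. Tnp2, Prm3 and Tssk1 had no peak, Tssk2 had a peak in leptonema/zygonema only, and Adam3 had peaks of all 3 lists that did not share 1 element. The median percentiles of the 24 elements were 91.1, 89.9 and 90.9, and 5 of the 24 were CpG-rich. The study gives elongated spermatids as the main other cells in its fractions, and their part in these calls was not tested.

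A list of 18 autosomal genes was taken from those the study names in its Results. It is a selection and leaves out some of them, and its 18 genes were near a constant element, on 16 elements. The study chose them on these samples, so the count is not independent evidence. Between leptonema/zygonema and diplonema 12 of the 16 elements gained percentile, as did 34.7% of all constant elements. Ranked among the constant elements alone, 13 of the 16 gained, next to 52.1% of all. The lncRNA gene Malat1 stood at 93.8, 96.7 and 96.4, and Brdt, the testis-specific bromodomain protein, at 95.5, 95.3 and 88.2. Coa3 and Cntd1 shared an element at 68.3, 87.1 and 90.4, and nearby Becn1, an autophagy gene, had its own at 83.3, 90.7 and 88.5. The other named elements were those of Mybl1 (87.6, 91.8 and 70.1), a transcription factor of pachynema, Ybx1 (82.9, 83.4 and 91.9), Ccdc39 (88.9, 96.3 and 94.3), Ubl4b (93.0, 97.4 and 94.3), Knl1 (81.3, 82.3 and 77.6), Spata1 (53.4, 65.2 and 61.1), Gm11837 (75.3, 86.0 and 93.6), 1700108J01Rik (87.1, 91.6 and 97.6), H1fnt (77.1, 73.3 and 79.6) and Tssk6, given above. The element shared by Atr and 1700065D16Rik stood at 95.2, 98.6 and 98.8, with 3, 3 and 2 peaks, and that of Xrn1 at 76.6, 81.2 and 80.7.

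Genes of general cell functions were covered to a similar extent. A constant element lay at 28 of 28 Mediator genes, 27 of 28 splicing factor genes (all but Sf3b5), 17 of 18 genes of TBP-associated factors (all but Taf6), 68 of 78 cytoplasmic ribosomal protein genes, 30 of 35 genes of mitochondrial complex I, 41 of 48 proteasome genes, 11 of 13 RNA polymerase II genes (all but Polr2l and Polr2g) and 58 of 75 mitochondrial ribosomal protein genes. The highest-ranked of these lists included Med1 (99.3, 99.8 and 98.3), Psmd2 (99.6, 99.4 and 99.6), Ndufa8 (99.8, 98.7 and 98.6) and Rpl37 (99.2, 99.9 and 97.9). The lowest-ranked included Psme2 (83.4, 73.1 and 3.51), Rpl27a (67.1, 64.2 and 3.73), Ndufab1 (43.0, 41.1 and 6.13) and Polr2k (74.8, 71.2 and 10.3), each with its lowest percentile in diplonema. Clustered histone genes, which are expressed in S phase, were nearer the background, with 40 of 67, and ran from Hist3h2a (88.5, 93.5 and 92.6) to Hist2h2ab (0.449, 79.0 and 82.0).

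Gene families of other tissues were mostly without a constant element. Of 39 Hox genes 4 had one (Hoxd10, Hoxd8, Hoxa4 and Hoxc6), of 1087 olfactory receptor genes 14, of 326 vomeronasal receptor genes 4, of 42 beta-defensin genes 2 (Defb30 and Defb33) and of 57 keratin-associated protein genes 1. That exception, Krtap9-3, stood at 98.5, 96.5 and 93.4, but the element lay 735 bp from its TSS. The 14 olfactory receptor genes were on 13 constant elements, which had a median CpG observed/expected ratio of 0.107 and of which 1 was CpG-rich. Olfr112 (99.7, 98.01 and 91.5) was the highest-ranked of them and Olfr1349 (39.0, 27.8 and 0.165) the lowest, and 5 of the 13 elements, at Olfr112, Olfr126, Olfr127, Olfr128 and Olfr761, lay between 37569141 and 37952870 on chromosome 17. Olfactory receptor genes form a large multigene family, read mapping there was not examined, and these calls are given as uncertain. The elements of Olfr1349, Olfr126, Olfr127, Olfr128 and Olfr279 lay at internal TSSs.

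The elements ranked high within each list, which in part follows from the rule. Over the 12542 elements the median percentile was 83.7 among leptonema/zygonema peaks, 85.6 among pachynema peaks and 74.1 among diplonema peaks, against 35.2, 31.4 and 24.3 for the other proximal elements with a peak in that list and 81.8, 78.8 and 52.2 for the distal elements of all 3 lists. Scores are not scaled between lists, and the order of the 3 medians depended on the list lengths: with each list reduced to its 38603 highest-scoring peaks the medians were 73.8, 77.6 and 77.5. The constant share went with the leptonema/zygonema score, from 12.3% of the proximal elements in the lowest decile to 97.4% in the highest. Proximal elements that were absent from diplonema only numbered 4331 and had lower median percentiles than the constant ones, 51.5 in leptonema/zygonema and 40.9 in pachynema.

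**Figure D4:**
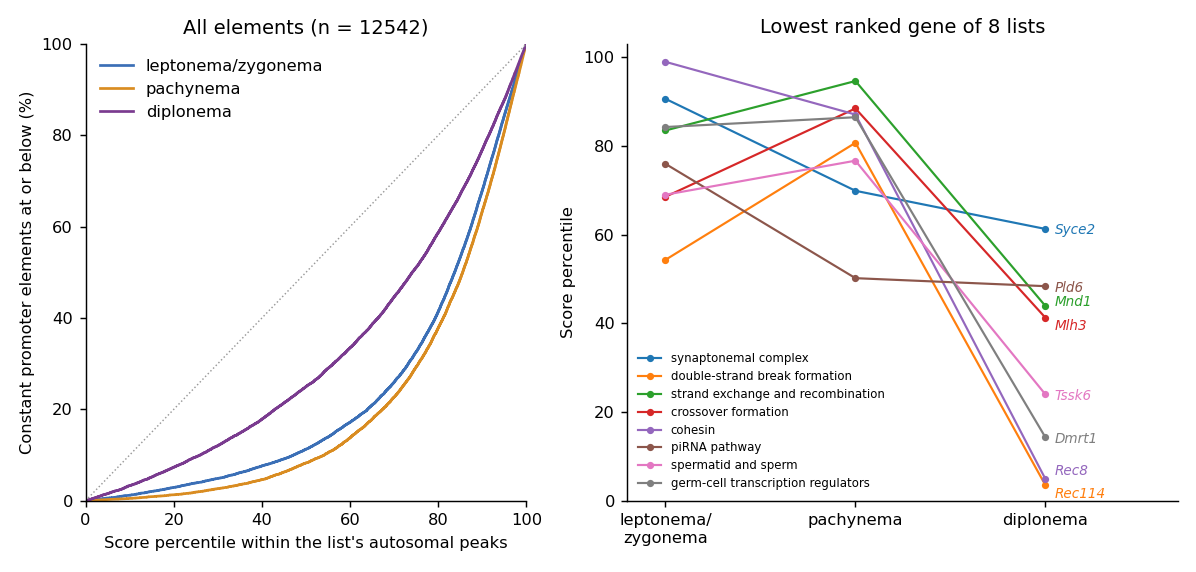
Left, cumulative percent of the 12542 constant promoter elements (y axis) at or below each score percentile (x axis) in the 3 lists, where the dotted diagonal is the line along which all peaks of a list lie. Right, score percentile (y axis) in the 3 substages (x axis) of the lowest-ranked gene of 8 gene lists, with lines joining the same gene. The highest-scoring peaks of the 3 lists did not all overlap in the elements of Rec114, Syce2 and Pld6. The diplonema curve lies nearest to the diagonal, and Rec8, Rec114 and Dmrt1 have percentiles of 4.90, 3.51 and 14.3 in diplonema.

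Ranks were similar between neighbouring substages and less so across the whole interval. Spearman's rho over the 12542 elements was 0.785 between leptonema/zygonema and pachynema, 0.745 between pachynema and diplonema and 0.544 between leptonema/zygonema and diplonema, as a description of elements that share lists, depth and sequence. Of the elements 8802 (70.2%) were above the 50th percentile of each list, and 1706 (13.6%) were above the 90th of each. The range of an element's percentile over the 3 lists had a median of 15.9 points, was at most 10 points in 4129 elements (32.9%) and over 50 points in 1228 (9.79%). Of these 1228, 1009 were lowest in diplonema, 198 in leptonema/zygonema and 21 in pachynema.

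This preponderance of diplonema depended on the scale. The lowest of the 3 percentiles was that of diplonema in 60.5% of the elements. The share was 60.4% with percentiles among proximal peaks and 52.6% with the mean score of an element's peaks. It was 33.7% with lists of equal length and 36.1% when elements were ranked among the 12542 members alone. On that last scale, which removes any shift common to all members, the range exceeded 50 points in 1182 elements, of which 641 were lowest in diplonema and 460 in leptonema/zygonema. Both directions are seen for meiotic genes on this scale, chosen after their values were seen. Rec8 ranked at 97.1, 54.3 and 1.52 among the members, Mei4, a break-formation gene, at 88.3, 71.1 and 24.9, and Dmc1, the meiotic recombinase, at 56.7, 20.8 and 22.7. In the other direction Sycp3, a lateral element protein of the synaptonemal complex, ranked at 45.6, 78.0 and 97.1, Piwil1, a piRNA-binding protein of pachynema and spermatids, at 24.0, 61.4 and 98.5, and Adam2, a sperm surface protein, at 20.7, 60.6 and 98.1.

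The 10 elements with the highest minimum percentile were at 4921513I08Rik, Nckap1l, Bcl7b, 1700024P04Rik, Yap1, Hsdl1, Aasdh, 1700129C05Rik, Morc2b and Strap, with minima from 99.47 to 99.93, and each held a TSS. Their median width was 1035 bp, and 3 of the 10 (Bcl7b, Hsdl1 and Strap) were CpG-rich while 7 were not, compared with 70.5% of the 1706 elements above the 90th percentile of each list. The element of 4921513I08Rik, an antisense RNA gene, was 880 bp wide with 1 peak in each list and percentiles of 99.99, 99.96 and 99.93. That of Bcl7b, a subunit of the SWI/SNF chromatin remodelling complex, stood at 99.999, 100 and 99.80. The elements at Nckap1l, a gene of blood cell actin regulation, and Yap1, a coactivator of the Hippo pathway, lay at internal TSSs and not at the first start of the gene. At Yap1 it spanned 7965441 to 7966550 on chromosome 9, within a gene that runs from 7931999 to 8004596. The element at Hsdl1 also covered the start of Dnaaf1, which encodes an assembly factor of ciliary dynein.

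The largest gains of percentile from leptonema/zygonema to diplonema were at 4930477E14Rik, 4930403D09Rik, Sall3, 1700026J12Rik and Dock2, of which the 3 with Rik names are noncoding RNA genes. 4930477E14Rik went from 1.86 over 90.7 to 97.2, 4930403D09Rik from 5.60 over 96.0 to 99.5, and Sall3, a zinc-finger transcription factor, from 4.62 over 96.4 to 98.5. 1700026J12Rik went from 4.29 over 86.0 to 97.2 and Dock2, a regulator of the cytoskeleton in blood cells, from 2.29 over 84.3 to 93.1. All 5 had a single leptonema/zygonema peak and had passed the 80th percentile by pachynema. The element of 4930403D09Rik, from 34299271 to 34300350 on chromosome 11, lies inside the annotated span of Dock2, from 34226815 to 34783892 on the same chromosome, while the element led by Dock2 lies at its start.

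In Sall3 the leptonema/zygonema peak overlapped neither of the highest-scoring later peaks. The largest losses were at Pxdc1, Mtmr7, Efhd2, Gm28050 and Rec8, that of Pxdc1 at an internal TSS. Pxdc1 went from 97.6 over 96.6 to 1.45, Mtmr7, a phosphoinositide phosphatase, from 96.2 over 90.04 to 0.516, Efhd2, a calcium-binding protein, from 98.5 over 89.3 to 3.73, and Gm28050, a lincRNA gene, from 94.5 over 94.3 to 0.254. Each of these 5 elements was still above the 85th percentile in pachynema, and each held 1 peak in diplonema. The lowest minimum percentiles were those of 4930528H21Rik (42.5, 64.0 and 0.0214), Gm46348 (91.9, 67.02 and 0.0334, from a diplonema peak apart from the highest-scoring pachynema peak), Ptprd (0.0428, 88.1 and 57.5), Mcoln1 (51.8, 37.8 and 0.0789) and Egfr (0.0857, 63.7 and 8.38), so that a member could rest on a call near the lowest score of a list.

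The members differed from other elements in base composition, which the rule did not use. In the central 200 bp the median ratio of observed to expected CpG was 0.712 in constant promoter elements, 0.390 in the other proximal elements and 0.216 in the distal elements of all 3 lists. The median GC content was 61.0%, 52.0% and 48.0%, and the median number of CpGs 13, 5 and 2. Defining a window as CpG-rich when the ratio was at least 0.6 and the GC content at least 50%, 57.6% of the constant elements were CpG-rich, against 25.6% of the other proximal elements (difference 32.1 percentage points, Newcombe 95% interval 30.9 to 33.2) and 6.46% of the distal elements of all 3 lists (difference 51.2, interval 50.1 to 52.2). Proximal elements of leptonema/zygonema and pachynema only lay between, with 33.4%.

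**Figure D5:**
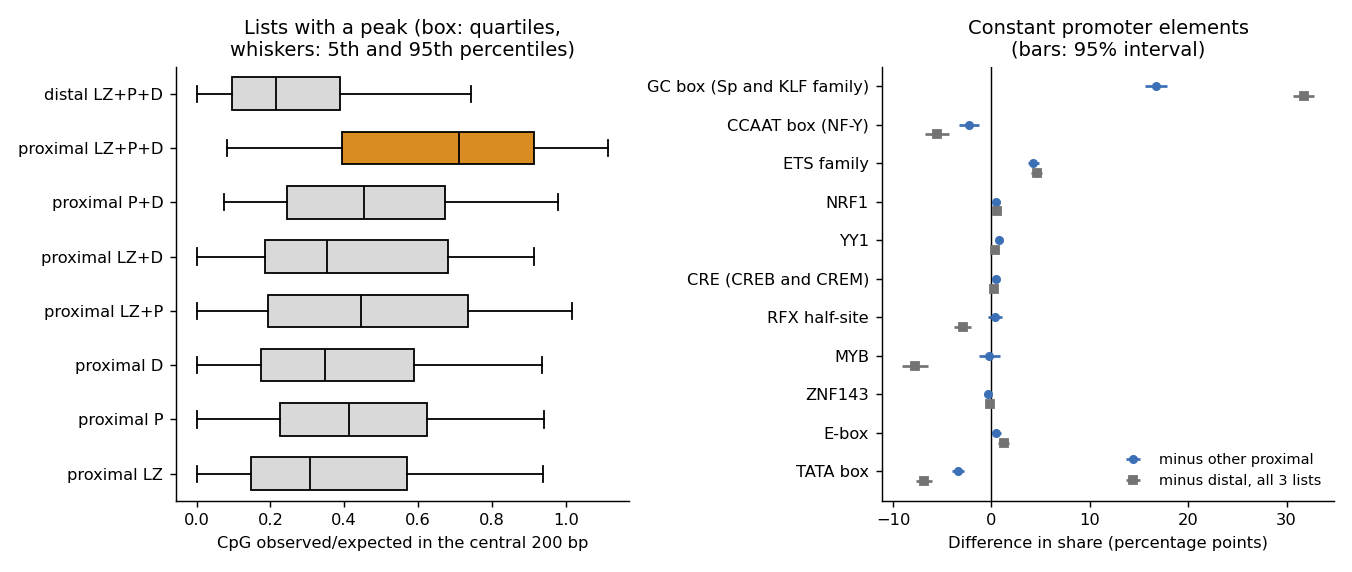
Left, ratio of observed to expected CpG in the central 200 bp (x axis) of elements grouped by the lists in which they held a peak (y axis: LZ, leptonema/zygonema, P, pachynema, D, diplonema), with medians and quartiles as boxes and the 5th and 95th percentiles as whiskers. Right, share of constant promoter elements with each motif minus that of the other proximal elements (circles) or of the distal elements of all 3 lists (squares), in percentage points (x axis) with Newcombe 95% intervals. The constant promoter elements (orange) have the highest median, 0.712, and the GC box has the largest difference, 16.7 points against the other proximal elements.

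The CpG difference was present at each level of the leptonema/zygonema score. Within 5 equal-sized classes of that score the median ratio of constant elements exceeded that of the other proximal elements by 0.149, 0.209, 0.252, 0.363 and 0.415, from the lowest to the highest. Among the constant elements, the 7227 CpG-rich ones and the 5315 others also differed. CpG-rich elements had a median width of 1350 bp against 1050 bp, a TSS inside in 96.2% against 80.9%, and a protein-coding gene nearby in 96.1% against 68.4%. Their median percentile in diplonema was 79.5 against 65.1, and the median range over the 3 lists was 12.9 points against 21.3, both given as a description because the scores come from the lists that chose the members. Of the 1228 elements with a range over 50 points, 38.0% were CpG-rich.

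CpG content also varied between the gene lists, around the 57.6% of all constant elements that were CpG-rich. Of the elements of the pausing genes 21 of 23 were CpG-rich, of the ribosomal protein genes 61 of 68, of the splicing factor genes 25 of 27 and of the recombination genes 14 of 17. Nearer the share of all members were the piRNA genes with 9 of 15, the break-formation genes with 5 of 8, the clustered histone genes with 16 of 26 and the complex I genes with 20 of 30. The spermatid and sperm genes had 5 of 24 and a median ratio of 0.315, above the 0.107 of the olfactory receptor elements and below the 0.712 of all constant elements. Acr, which encodes the acrosomal protease, had a ratio of 0.199 and stood at 97.7, 99.4 and 99.7, and Pgk2, the phosphoglycerate kinase of spermatogenesis, had 0.308 and stood at 91.2, 97.2 and 99.8, both named after their values were seen. Tdrd1, in the piRNA list and also chosen by its value, had no CpG in its window and stood at 98.8, 94.3 and 86.4. High percentiles in all 3 lists were thus found with and without CpG-rich sequence.

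Of the 11 motifs, 5 were more frequent in the constant than in the other proximal elements. The GC box was present in 38.9% against 22.2% (difference 16.7 percentage points, Newcombe 95% interval 15.6 to 17.8) and the ETS motif in 7.54% against 3.28% (4.26, interval 3.71 to 4.82). For windows of 50 bp each side these 2 differences were 9.27 and 2.32 points. By leptonema/zygonema score class, numbered from the lowest, the GC box interval included 0 in class 5 (-2.37 to 13.7 points). The ETS interval included 0 in class 1 (-0.78 to 2.44) and class 5 (-2.84 to 5.36). Smaller differences were found for the motifs of YY1 (2.14% against 1.32%) and NRF1 (1.01% against 0.513%) and for the CRE (1.26% against 0.793%). In windows centred on the TSS these differences were 1.82, 0.97 and 0.77 points. They were 0.47, 0.17 and 0.24 points in windows of 50 bp each side. In classes 1 to 4 of the 5 leptonema/zygonema score classes, from the lowest, each interval of these differences included 0. The CRE difference in these classes was -0.24, -0.43, -0.36 and -0.03 points. In class 5, the highest, with 131 other proximal elements, the NRF1 difference was -2.01 points (interval -6.55 to -0.11). The YY1 and CRE intervals of class 5 included 0. Proximal elements of leptonema/zygonema and pachynema only held the CRE in 1.27% of cases. The TATA box was less frequent, with 4.16% against 7.55% (-3.38, interval -3.96 to -2.81), a difference of -1.32 points in windows centred on the TSS and -2.02 points in windows of 50 bp each side. CCAAT was less frequent as well, with 20.1% against 22.4% (-2.24, interval -3.25 to -1.24), but in windows centred on the TSS this difference reversed to 0.30 points. In score classes 1, 2 and 5 the intervals of the TATA box and CCAAT differences included 0. For the MYB motif the shares were 25.3% and 25.5% and the interval of the difference ran from -1.28 to 0.86 points, and the intervals of the RFX, ZNF143 and E-box motifs also included 0. In windows centred on the TSS, however, the MYB, RFX and E-box motifs were more frequent in constant elements, by 1.46, 1.53 and 1.13 points. In score classes 1 to 4 the RFX difference was 0.06, -1.80, -2.67 and -5.62 points, with intervals below 0 in classes 3 and 4. In class 5 the RFX difference was -4.74 points, with an interval of -12.0 to 0.66. The E-box difference was -0.25 points with scores of at least 0.5. Against the distal elements of all 3 lists the GC box was 31.7 points more frequent, while the MYB motif (-7.74, interval -9.07 to -6.43) and the TATA box were less frequent (-6.86, interval -7.67 to -6.07).

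Motif content was set beside the change of percentile as a description, since the scores come from the lists that chose the members. The intervals cover the counting of elements, which are not replicates, and test no motif. Percentiles here are those among all autosomal peaks of a list, a scale that depended on list length. The shares were not computed on the other scales. From leptonema/zygonema to diplonema, 38.4% of the 3170 members with a MYB match gained percentile, compared with 33.4% of those without and 34.7% of all members. The same shares were 45.9% and 34.4% for the YY1 motif, 38.2% and 32.4% for the GC box, 28.4% and 34.9% for the TATA box, and 32.3% and 35.3% for CCAAT. For the other 6 motifs the Newcombe 95% interval of the difference included 0. From leptonema/zygonema to pachynema the share that gained percentile differed between members with and without the motif by 9.30 points for YY1, 6.94 points for the GC box, 3.45 points for ETS and -4.40 points for the TATA box, and the intervals of the other 7 motifs, MYB among them (-1.08 to 2.88 points), included 0. From pachynema to diplonema it differed by 3.92 points for MYB and 3.51 points for the GC box, and the intervals of the other 9 included 0.

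The 1000 bp limit had few members near it. The elements just inside it were at Mrps5 and at the antisense gene Gm16599, both 996 bp from a TSS (an internal one for Mrps5), with percentiles of 81.1, 82.2 and 9.78 and of 13.7, 39.0 and 78.9. Those just outside were at Cldnd2, 1002 bp from a TSS (70.1, 65.1 and 61.7), and Map3k10, 1003 bp from a TSS (74.4, 71.0 and 61.3). Up to 100 bp inside the limit lay 77 members with median percentiles of 67.8, 67.1 and 45.3, and up to 100 bp outside it 61 distal elements of all 3 lists with 72.9, 71.1 and 51.1.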

How the data were processed

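The 3 substages of prophase I were measured by leChRO-seq in 12 libraries, 4 per substage. According to the study's methods and the submitters' processing notes, reads were deduplicated on their molecular identifiers (PRINSEQ lite), trimmed (cutadapt) and aligned to mm10 (BWA), bedtools was used, and dREG peaks were called after the 4 libraries of a substage had been joined. The dREG version is not given in the sources used here. The authors deposited a dREG score for every peak, ranked here within its list, and a p-value, none above 0.05, whose adjustment is not stated.

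Overlapping or touching peaks were merged across lists and set against 132666 TSS positions of GENCODE M21. An element's percentile in a list is that of its highest-scoring peak among the list's autosomal peaks. Base composition and motifs were read from GRCm38 in the 200 bp around the element centre. Wilson and Newcombe intervals are at the 95% level. No test was made between substages, since each has 1 pooled list. The steps were tested on simulated data, using Python 3.11.15 with scipy 1.17.1, pandas 2.3.3, numpy 2.4.6 and, for the plots, matplotlib 3.10.9.

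Genes were named by rule: the 10 highest minimum percentiles, the 5 largest gains and losses from leptonema/zygonema to diplonema, the 5 lowest minima, the 5 widest elements, 18 of the genes named in the study's Results, and the elements next to the 1000 bp limit. Absent, highest or lowest members of the gene lists were named as well, but not all of them for every list. Named after their values were seen were Mei4, Dmc1, Sycp3, Piwil1, Adam2, Acr, Pgk2, Tdrd1 and the members of small counts. A gene value and a sequence that these rules select are not reported here. The members and lists were chosen with earlier results of these data known. The alternatives were a dREG score of at least 0.5, a p-value of at most 0.01, lists of equal length, merging up to 100 bp, other TSS rules, other windows and other rankings. The ranking within lists of equal length and the ranking among the members were added after seeing the data.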

Additional observations from a re-analysis of the deposited data

How the results depend on the processing

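No paired analysis was possible because the libraries were pooled before peak calling, and for the same reason no library could be left out. Of 87 alternative values 34 stayed within the error or the 1.5-fold limit for counts, and the cause of the others was not tested. Each alternative number of constant elements was within that limit but below the 12542 of the main setting. It was 9396 with scores of at least 0.5, 10578 with TSSs of protein-coding genes only and 11142 with lists of equal length. With p-values of at most 0.01 it was 11527, and with merging up to 100 bp 11892. A TSS under 500 bp away gave 12110, and TSS distances from the element centre gave 12160. The share of autosomal protein-coding genes with a constant element was 41.0% with scores of at least 0.5, 46.2% with lists of equal length and 48.2% with a TSS inside the element, and the constant share of proximal elements was 50.1% and 56.7% with the first 2 of these. The upstream edge moved by 40 bp from leptonema/zygonema to diplonema with outermost edges, with scores of at least 0.5 and with equal lists. The downstream edge moved by -60 bp with outermost edges and -20 bp with the highest-scoring peak, and the centre by 10 bp with both. The CpG ratio of constant elements exceeded that of other proximal elements by 0.231 in windows centred on the TSS, where GC content differed by 6.5 percentage points, and by 0.281 with scores of at least 0.5. In windows centred on the TSS 8 motifs were more frequent and 1 less frequent in constant elements, and the CCAAT difference reversed to 0.30 percentage points. The median percentiles in leptonema/zygonema, pachynema and diplonema were 68.1, 70.5 and 61.9 with the mean score of an element's peaks (median range 19.99), 80.7, 81.3 and 69.1 among proximal peaks (17.7), and 73.8, 77.6 and 77.5 within lists of equal length (18.2). The depth of the pooled libraries is not in the lists, so absence of a diplonema peak cannot be told apart from shallower sequencing.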
